A study of Mus musculus with 6 samples.

Results

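Follicular helper CD4 T cells (Tfh) were examined in lymph nodes of pregnant mice. The cells were those that the deposited CD4 subset table names Tfh. They numbered 136 of 7300 lymph node cells, which is 5.30% of the 2564 CD4 T cells and 16.0% of the 850 cells given a CD4 subset. The other subsets were Act. Treg (155 cells), Resting Treg (266), Early Act. CD4 (188) and Th17 (105), named as in the table, and 1703 CD4+ Naive T cells served as a further comparison.

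Tfh cells settle in the B cell follicles of lymph nodes, where they help B cells form germinal centres and make high-affinity antibody. The chemokine receptor Cxcr5 guides them into the follicle, the transcription factor Bcl6 sets their programme against that of other effector cells, and they act on B cells through CD40 ligand, Icos, adhesion receptors of the SLAM family and the cytokines Il21 and Il4. They carry much of the inhibitory receptor PD-1, the product of Pdcd1.

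The study measured single-cell RNA from 7 dams mated to BALB/c males, so that fetal cells held paternal antigens that the dam lacks. The 4 Aire-DTR mice (mice 4, 7, 8 and 36) carry a diphtheria toxin receptor in cells that express Aire, the factor through which thymic epithelium displays tissue antigens, and the 3 WT mice (mice 1, 6 and 97) carry none. Dams of both genotypes received diphtheria toxin over 9 days from the start of pregnancy, and nodes were taken at embryonic day 9.5. Each mouse gave cells of the uterine-draining node (udLN) and of the brachial node (brLN), which lies outside uterine drainage. Among Aire-DTR dams the cell table gives the phenotype resorbed for mouse 4 and IUGR for mice 7, 8 and 36. The sources used here state neither strain nor age of the dams. Each of the 3 pools held both genotypes: mice 4, 7 and 1 were in pool LN, mice 8 and 6 in pool 1, and mice 36 and 97 in pool 2.

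Before any result, 1 feature of the files bears on every count. All 2127 cells of well 1 of pool LN are present in the matrix in 2 copies with identical counts in every gene, under barcodes that differ only in their suffix. The files list 9427 cells and 173 Tfh cells, and 37 of the Tfh entries are such second copies. Each cell was counted once here, and values from the files as deposited are given where they differ in a call. For 1 cell the copies carried different names, Tfh in one and Early Act. CD4 in the other. No barcode letters were shared among the 136 Tfh cells.

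Depth set the limits of what could be seen per cell. Tfh cells had a median of 2987 UMIs (unique molecular identifiers, 1 per captured transcript; range 306 to 8834) and 436693 UMIs in all. Median UMIs were 3392 in Th17, 2763 in Act. Treg, 2586 in Resting Treg, 3514 in Early Act. CD4 and 2903 in CD4+ Naive T cells. In the whole-series annotation 127 of the 136 Tfh cells are called CD4+ Mem T, and the remaining 9 are called CD4+ Treg. Levels below are CPM, the UMIs of a gene scaled to 1000000 UMIs of the cells named. Because the subsets were made by clustering such cells, levels of Tfh cells against other subsets are a description and carry no test.

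The label fitted its markers. Cxcr5 (chromosome 9, 44511787 to 44561877, GRCm38, minus strand) reached 206 CPM in Tfh cells against 44.3 CPM in Act. Treg, the next class, and 2.78 CPM in CD4+ Naive T cells. Il21 (chromosome 3, 37222759 to 37232636, minus strand) was at 52.7 CPM in Tfh against 10.1 CPM in Act. Treg. Pdcd1 (chromosome 1, 94038305 to 94052553, minus strand) was at 220 CPM in Tfh against 149 CPM in Act. Treg. Maf (chromosome 8, 115682942 to 115707794, minus strand), a transcription factor that drives Il21 and Il4, did not set Tfh cells apart from activated regulatory cells, at 334 CPM in Tfh, 352 CPM in Act. Treg and 171 CPM in Th17 cells. So 3 of the 4 markers were highest in Tfh among the 6 classes, and all 4 were above CD4+ Naive T cells.

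Single cells showed each marker in a minority or about an even part of the class. A Cxcr5 UMI was found in 46 of 136 Tfh cells (33.8%, 95% Wilson interval 26.4% to 42.1%), a Pdcd1 UMI in 30.1%, a Maf UMI in 50.7% and an Il21 UMI in 10.3%. CD8+ Naive T cells, which should lack these genes, had them in 0.574%, 0.574%, 0.156% and 0.0521% of cells at a median of 3446.5 UMIs. The part of free RNA in the Tfh shares was not tested. Intervals cover counting error only. At least 1 of the 4 markers was seen in 100 Tfh cells (73.5%), against 63.2% of Act. Treg, 46.7% of Th17, 16.5% of Early Act. CD4, 16.2% of Resting Treg and 3.70% of CD4+ Naive T cells. All 4 markers were seen together in 6 Tfh cells. Cxcr5 and Pdcd1 were seen in the same cell in 16.2% of Tfh against 4.52% of Act. Treg cells.

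The 36 Tfh cells without any of the 4 markers had the same depth, with a median of 2989 UMIs against 2987 in the 100 cells with a marker. Other Tfh genes were lower in them in part. Tox2 was at 9.01 CPM in cells without a marker against 107 CPM in cells with one, Asb2 at 9.01 against 126 CPM, and Sh2d1a at 288 against 611 CPM. Hpcal1 was at 207 against 209 CPM, Slc9a9 at 135 against 153 CPM and Tnfsf8 at 126 against 153 CPM, all above every other class. So some leading genes of the class were as high in cells without a marker, and some were not.

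The 9 Tfh cells that the whole-series annotation calls CD4+ Treg looked different. They held 18083 UMIs, in which no UMI of Cxcr5, Pdcd1, Il21 or Tox2 was found, while 3 UMIs at that depth would equal 166 CPM. The remaining marker, Maf, had 2 UMIs (111 CPM). Ikzf2, the Treg factor Helios, was at 332 CPM (6 UMIs) in those 9 cells against 110 CPM in the 127 cells called CD4+ Mem T. Izumo1r, the folate receptor 4, was at 2046 CPM (37 UMIs) against 705 CPM. The Foxp3 level of those 9 cells, 55.3 CPM, rested on 1 UMI. Over all Tfh cells Foxp3, the defining factor of regulatory T cells, was at 13.7 CPM against 451 CPM in Act. Treg, and 5 of 136 Tfh cells had a Foxp3 UMI. A cell with both Cxcr5 and Foxp3, the pair of follicular regulatory cells, occurred in 1 of 136 Tfh, 7 of 155 Act. Treg and 6 of 266 Resting Treg cells.

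**Figure D1:**
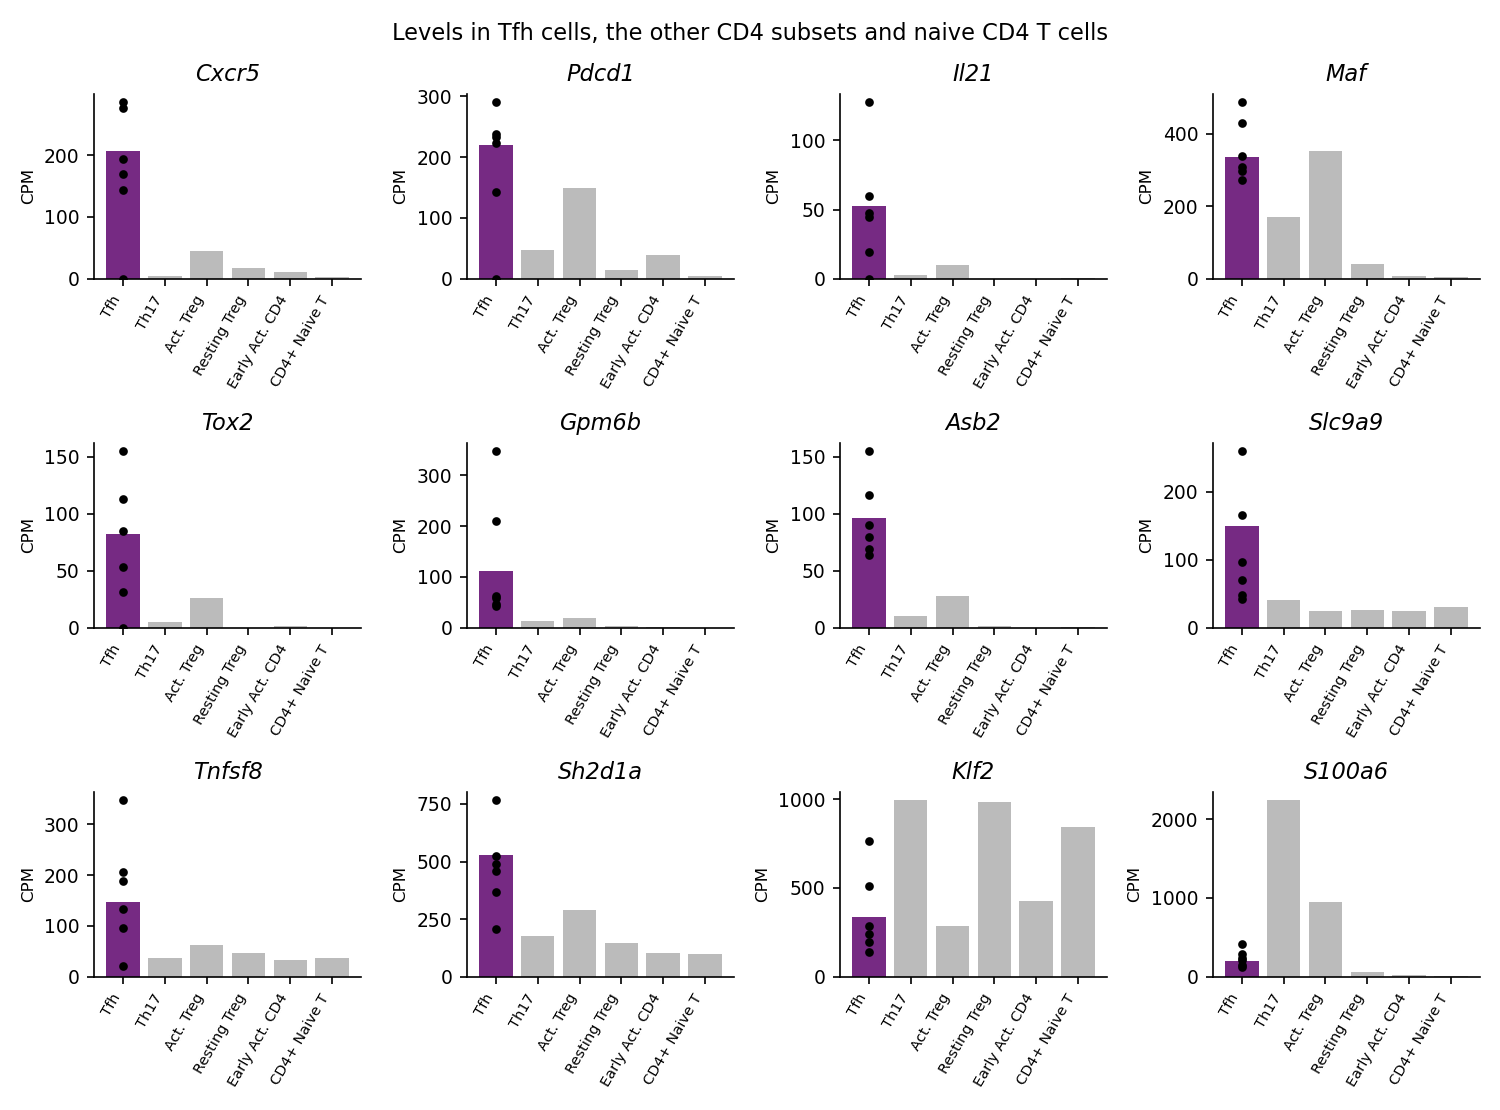
Levels of 12 genes in CPM (linear axes, bars from 0) in the summed cells of Tfh (purple) and of 5 other CD4 T cell classes (grey). Black points are the Tfh cells of the 6 mice with at least 5 of them. Cxcr5, Il21, Tox2, Gpm6b and Asb2 stand highest in Tfh, Maf is as high in Act. Treg (352 CPM), Klf2 is low in both, and S100a6 is highest in Th17.

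The genes that led the class by size were chosen as the 15 with the highest ratio of Tfh CPM to the highest CPM among the other 5 classes, with at least 50 CPM in Tfh. Their next-highest class was Act. Treg for 10 of the 15, and for 11 of the 15 Tfh cells were highest in at least 5 of 6 mice. Tox2, an HMG-box factor that supports the Tfh programme, was at 82.4 CPM in Tfh against 26.2 CPM in Act. Treg and was not seen in CD4+ Naive T or Resting Treg cells. Gpm6b, a membrane proteolipid better known from neurons, was at 112 CPM in Tfh against 20.1 CPM in Act. Treg, and was highest in Tfh in 6 of 6 mice. Asb2, the substrate adaptor of an E3 ubiquitin ligase, was at 96.2 CPM in Tfh against 28.2 CPM in Act. Treg, again in 6 of 6 mice.

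Slc9a9, an endosomal sodium-proton exchanger, was at 149 CPM in Tfh against 40.4 CPM in Th17 cells. Tnfsf8, the ligand of CD30, was at 147 CPM in Tfh against 62.4 CPM in Act. Treg. Hpcal1, a neuronal calcium sensor protein, was at 208 CPM in Tfh against 92.3 CPM in Early Act. CD4 cells, in 6 of 6 mice. Dennd2d, an activator of Rab GTPases, was at 240 CPM in Tfh against 112 CPM in Early Act. CD4. Ppp1r14b, an inhibitor of protein phosphatase 1, was at 101 CPM in Tfh against 42.2 CPM in Act. Treg. Mbtd1, Wbp1l, Nagk and Stk39 completed the 15, with ratios of 2.12 to 2.91, and Nagk was highest in Tfh in only 2 of 6 mice. H2-Q2, a class I gene of the major histocompatibility complex, had the highest ratio, at 55.0 CPM in Tfh against 4.02 CPM in Act. Treg. It belongs to a family of near-identical genes that share reads, so its level is uncertain.

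The transcription factors of the Tfh programme were partly higher. Of 13 in the matrix, 6 were highest in Tfh among the 6 classes and 12 were above CD4+ Naive T cells, where 2306 of 9806 genes with at least 20 UMIs were highest in Tfh and 6506 were above naive. Bcl6 itself was near the limit of detection, with 8 UMIs in 7 Tfh cells, or 18.3 CPM in Tfh against 6.04 CPM in Act. Treg and 2.38 CPM in CD4+ Naive T. Tcf7, the factor TCF1 that favours Tfh fate, was at 625 CPM in Tfh, 115 CPM in Act. Treg, 282 CPM in Th17 and 431 CPM in CD4+ Naive T cells. Pou2af1, a coactivator of octamer-binding factors, was at 32.1 CPM in Tfh against 15.1 CPM in Th17 cells. Tox was as high in Act. Treg (274 CPM) as in Tfh (279 CPM), and Batf, Irf4, Nfatc1 and Id3 were higher in Act. Treg.

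Genes through which T cells help B cells followed. Of 15, 7 were highest in Tfh and 14 were above CD4+ Naive T cells. Over all 9806 genes with at least 20 UMIs, 2306 were highest in Tfh and 6506 were above naive. The 15 summed to 3907 CPM in Tfh and to more in Act. Treg, at 5583 CPM. Sh2d1a, the adaptor SAP that SLAM receptors need for stable T cell to B cell contact, was at 529 CPM in Tfh against 288 CPM in Act. Treg and 100 CPM in CD4+ Naive T. Slamf6, a receptor that signals through it, was at 302 CPM in Tfh against 211 CPM in Act. Treg. The costimulatory receptor Cd28 was at 385 CPM in Tfh against 322 CPM in Act. Treg, and Tnfsf11, the ligand RANKL, at 84.7 against 46.3 CPM. Cd40lg, the CD40 ligand, was shared with Th17 cells, at 202 CPM in Tfh and 219 CPM in Th17, and stood at 46.3 CPM in Act. Treg. Icos was at 385 CPM in Tfh against 750 CPM in Act. Treg.

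Of the cytokines, Il4 was at 55.0 CPM in Tfh, 30.3 CPM in Th17 and 28.2 CPM in Act. Treg. Its 24 UMIs lay in 11 Tfh cells, and 3 Tfh cells held both Il4 and Il21. Ifng had 2 UMIs, and Il10 and Il13 had none in Tfh cells. The inhibitory receptors Ctla4, Lag3 and Tigit, at 112, 43.5 and 167 CPM in Tfh, were all higher in Act. Treg, at 742, 173 and 386 CPM. Pdcd1 and Btla were the receptors of that list that were highest in Tfh.

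Genes of other helper fates summed to less in Tfh than in Th17 cells and to more than in CD4+ Naive T cells. The type 1 genes summed to 481 CPM in Tfh, 1047 CPM in Th17 and 29.4 CPM in CD4+ Naive T, and the type 17 genes to 61.8 CPM in Tfh, 630 CPM in Th17 and 9.53 CPM in CD4+ Naive T. The 12 antagonists of Tfh fate summed to 1596 CPM in Tfh, 3193 CPM in Th17 and 2057 CPM in CD4+ Naive T. Of these 12, 2 were lowest and 1 was highest in Tfh, and 7 were above their level in CD4+ Naive T (median ratio 1.11). Over all 9806 genes with at least 20 UMIs, 1130 were lowest and 2306 highest in Tfh, and 6506 were above naive (median ratio 1.19). Klf2, which keeps T cells recirculating and restrains Tfh fate, was at 339 CPM in Tfh, 288 CPM in Act. Treg, 984 CPM in Resting Treg, 994 CPM in Th17 and 843 CPM in CD4+ Naive T cells. Prdm1, the factor Blimp1 that opposes Bcl6, had 1 UMI in Tfh cells against 36.2 CPM in Act. Treg. Il2ra, a receptor chain that regulatory cells carry, was at 4.58 CPM in Tfh, 312 CPM in Act. Treg and 441 CPM in Resting Treg. Il7r was at 179 CPM in Tfh against 857 CPM in Th17 and 441 CPM in CD4+ Naive T. Gzmb, the cytotoxic protease granzyme B, had no UMI in Tfh cells against 141 CPM in Th17.

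Memory and effector genes separated Tfh most clearly from Th17 cells. The 12 listed genes summed to 2501 CPM in Tfh, 12400 CPM in Th17 and 5941 CPM in Act. Treg. S100a4, a calcium-binding protein of effector cells, was at 18.3 CPM in Tfh against 618 CPM in Th17, and S100a6 at 202 against 2237 CPM. Vim, the intermediate filament protein vimentin, was lowest in Tfh of all 6 classes, at 263 CPM in Tfh, 293 CPM in Early Act. CD4 and 2106 CPM in Th17. Crip1, a LIM-domain protein, was at 387 CPM in Tfh against 552 CPM in Early Act. CD4, the next lowest. Smad7, the inhibitor of TGF-beta signalling, had the lowest ratio to the next lowest class, at 38.9 CPM in Tfh against 83.2 CPM in Th17, and was lowest in Tfh in 6 of 6 mice. Emp3, a membrane protein, at 266 CPM in Tfh against 386 CPM in Early Act. CD4, was lowest in 5 of 6 mice. The other 7 of the 10 genes lowest in Tfh by this ratio were Tmc6, Pcif1, Prpf19, Klf6, Lfng, Grap and Nop53, at ratios of 0.481 to 0.718.

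Of 15 naive genes, 2 (Tcf7 and Rgs10) were higher in Tfh than in CD4+ Naive T cells. The 15 summed to 3458 CPM in Tfh against 6633 CPM in CD4+ Naive T, and were lowest in Act. Treg, at 2436 CPM. Ccr7, which holds cells in the T cell zone, was at 268 CPM in Tfh against 617 CPM in CD4+ Naive T. It was lower than in Tfh in Act. Treg (191 CPM) and Th17 (171 CPM), and higher in Resting Treg (401 CPM) and Early Act. CD4 (308 CPM). Selplg, which encodes PSGL-1 and is known to be low on Tfh cells, was at 256 CPM in Tfh, lowest of the 6 classes. Of the 16 migration genes, to which Selplg belongs, 11 were higher in Tfh than in CD4+ Naive T (median ratio 2.24), and 5 were highest and 1 was lowest in Tfh. Over all 9806 genes with at least 20 UMIs, 6506 were higher than in naive cells (median ratio 1.19), 2306 were highest and 1130 lowest in Tfh. The 16 migration genes summed to 2537 CPM in Tfh against 2370 CPM in CD4+ Naive T. The 14 cell cycle genes summed to 327 CPM in Tfh, 404 CPM in Act. Treg, 325 CPM in Th17 and 226 CPM in CD4+ Naive T, and Mki67, a marker of dividing cells, had 4 UMIs in the 136 Tfh cells.

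Markers of other cells were counted as well. A UMI of Cd79a, Cd79b or Ms4a1 was found in 5 of 136 Tfh cells (3.68%), against 12.4% of Th17, 10.97% of Act. Treg, 8.27% of Resting Treg, 9.04% of Early Act. CD4 and 5.29% of CD4+ Naive T cells. The 12 B cell markers summed to 637 CPM in Tfh and to 343 to 1294 CPM in the other 5 classes, and Ighm and Cd74 made up most of it. The germinal centre B cell genes Rgs13 and Gcsam were at 0 in Tfh cells, while the list of 7 such genes summed to 103 CPM in Tfh, from 45 UMIs, against 43.2 to 101 CPM in the other 5 classes. The 5 red cell genes summed to 900 CPM in Tfh, the highest of the 6 classes, against 287 to 857 CPM in the other 5. Hbb-bs, a beta globin of red cells, was at 767 CPM in Tfh, with 292 of its 335 UMIs from mouse 36. Cd8a and Cd8b1 summed to 206 CPM in Tfh, 637 CPM in Early Act. CD4 and 61.1 CPM in CD4+ Naive T.

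**Figure D2:**
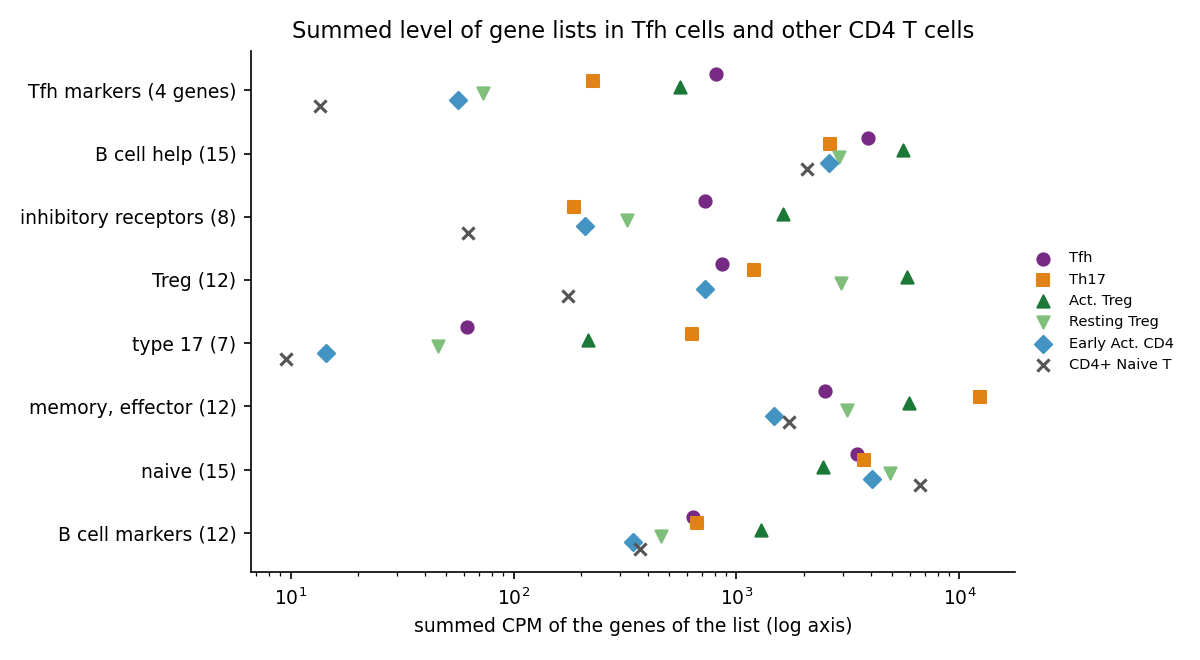
Summed CPM (log axis) of 8 gene lists in Tfh and 5 other CD4 T cell classes. Tfh cells stand highest for the 4 markers (813 CPM), second to Act. Treg for B cell help (3907 against 5583 CPM), and well below Th17 for memory and effector genes (2501 against 12400 CPM).

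The first comparison set udLN against brLN, which asks whether Tfh cells are placed differently in the node that drains the uterus. Tfh cells took a larger share of CD4 T cells in udLN in 6 of 7 mice. In Aire-DTR mice 4, 7, 8 and 36 they made up 9.56%, 6.61%, 8.14% and 10.97% of CD4 T cells in udLN, against 4.47%, 2.61%, 5.49% and 6.67% in brLN. In WT mice 1 and 6 they made up 6.45% and 5.45% in udLN, against 2.63% and 1.19% in brLN. WT mouse 97 was the exception, with 0 of 9 CD4 T cells in udLN, which allows a share of up to 33.3%, against 5 of 236 (2.12%) in brLN.

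The mean was 6.74% ± 3.53 in udLN against 3.60% ± 1.99 in brLN (SD, n = 7 mice; exact two-sided sign-flip permutation test of the within-mouse differences over 128 arrangements, p = 0.0312). Without mouse 97 it was 7.86% ± 2.10 in udLN against 3.84% ± 2.06 in brLN (SD, n = 6), higher in 6 of 6 mice, with an exact p of 0.0312, the smallest that 64 arrangements allow. In the edgeR quasi-likelihood test on cell numbers with mouse as a block, the share rose in udLN, with a log2 difference of 0.99 (SE 0.23, Benjamini-Hochberg adjusted p = 0.00085). Of the 5 subsets tested, 2 (40%) passed, Tfh and Act. Treg, whose share was 10.8% ± 5.8 in udLN against 5.01% ± 1.73 in brLN (SD, n = 7; log2 0.77, adjusted p = 0.00625 by the edgeR quasi-likelihood test). The udLN mean of Act. Treg includes mouse 97, at 2 of 9 cells. Without that mouse the Act. Treg share was 8.92% ± 3.24 in udLN against 5.07% ± 1.89 in brLN (SD, n = 6). Th17 and Early Act. CD4 had log2 differences of -0.43 and -0.49 and did not pass.

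The result did not depend on the denominator. Among the cells of the 5 subsets, Tfh cells made up 17.8% ± 9.0 in udLN against 11.03% ± 4.66 in brLN (SD, n = 7). Per 100 B cells there were 8.87 ± 6.04 Tfh cells in udLN against 3.75 ± 1.92 in brLN, and per 100 Treg cells 33.8 ± 17.2 against 23.6 ± 12.3 (SD, n = 7 each), each higher in udLN in 6 of 7 mice. The share per 100 B cells rests on a sort that the labels give as CD45+ CD3+ and the design text as CD45+. Each of the 6 wells, taken alone, had the higher Tfh share in udLN. It was 5.00% in udLN against 1.16% in brLN in well 1 of pool 1, and 14.0% against 4.47% in well 2 of pool 2. The gap was narrowest in well 1 of pool 2, at 5.63% against 5.22%. A well mixes the mice of its pool in parts that differ by node. In pool 2, mice 36 and 97 gave 155 and 9 CD4 T cells in udLN, against 345 and 236 in brLN. So the well values are not within-mouse differences, and wells of a pool are not replicates. A sample of sorted cells gives shares, not cell numbers per node.

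**Figure D3:**
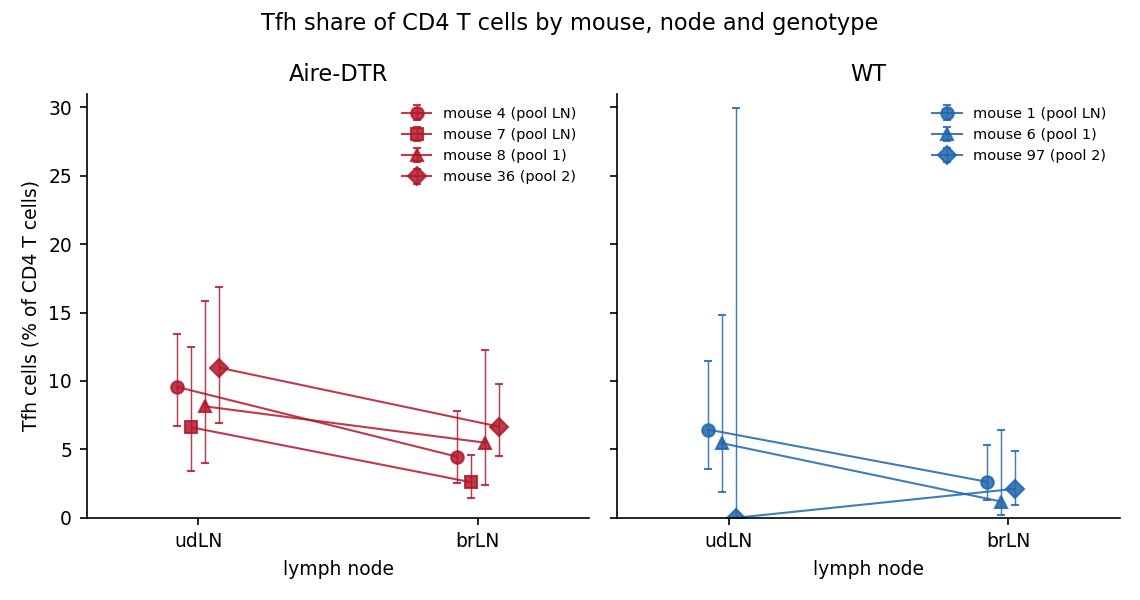
Tfh cells as a percentage of CD4 T cells in udLN and brLN, Aire-DTR mice left and WT mice right. Each symbol is a mouse, lines join its nodes and bars are 95% Wilson intervals of the counts. In 6 of 7 mice the udLN point is above the brLN point, and WT mouse 97 had 0 of 9 cells in udLN.

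The second comparison set Aire-DTR against WT, the question in the study's title being whether activated T cells expand after loss of Aire-expressing cells. In brLN the Tfh share was 4.81% ± 1.72 (SD, n = 4) in Aire-DTR mice against 1.98% ± 0.73 (SD, n = 3) in WT mice. The groups overlapped by a hair, since Aire-DTR mouse 7 stood at 2.61% (11 of 422 cells) and WT mouse 1 at 2.63% (7 of 266). The log2 difference was 1.10 (SE 0.43) and did not pass (edgeR quasi-likelihood test with pool as a term, Benjamini-Hochberg adjusted p = 0.109). None of the 5 subsets passed in this node (0%), and 1, Tfh, had an unadjusted p under 0.05. The exact two-sided permutation p was 0.114, where 35 arrangements allow no p below 0.0571.

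The copies of well 1 bear on this comparison. With both copies counted, as the files stand, mouse 7 was at 2.62% and mouse 1 at 2.24%, the genotypes no longer overlapped, and the log2 difference was 1.16 with an adjusted p of 0.0683 (edgeR quasi-likelihood test). Of all cells of the node, Tfh cells made up 1.63% ± 0.56 in Aire-DTR mice (SD, n = 4) against 0.633% ± 0.279 in WT mice (SD, n = 3), without overlap (exact permutation p = 0.0571). With that denominator the edgeR quasi-likelihood test passed, at a log2 difference of 1.31 and an adjusted p of 0.0285, as did limma on logit shares of CD4 T cells (1.17, adjusted p = 0.0249). Leaving out Aire-DTR mouse 7 also passed, at 1.31 (adjusted p = 0.0458), and leaving out each of the other mice did not. These were the 3 alternatives that passed, and 14 did not. As a share of the 5 subsets, per 100 B cells and per 100 Treg cells the genotypes overlapped in brLN (exact permutation p = 0.114 each).

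Within pools, with cells summed over the mice of a genotype, the direction in brLN was the same in 3 of 3. In pool 1 the Tfh share was 5.49% in Aire-DTR (5 Tfh cells) against 1.19% in WT (1 cell), and in pool 2 6.67% against 2.12%. In pool LN it was 3.29% over both Aire-DTR mice against 2.63% in WT. There mouse 4, at 4.47%, stood above the WT mouse, and mouse 7, at 2.61%, did not. In udLN the share was 8.82% ± 1.87 (SD, n = 4) in Aire-DTR against 3.97% ± 3.47 (SD, n = 3) in WT mice. As shares of CD4 T cells the genotypes did not overlap, with a range of 6.61% to 10.97% in Aire-DTR and of 0% to 6.45% in WT mice. The exact permutation p was at its smallest, 0.0571, and the same held per 100 Treg cells. As a share of all cells they overlapped (exact permutation p = 0.171). They also overlapped as a share of the 5 subsets and per 100 B cells (exact permutation p = 0.114 each). The WT value of 0% was 0 of 9 cells. With both copies of the repeated cells kept as deposited the genotypes overlapped, with 5.38% in Aire-DTR mouse 7 against 5.91% in WT mouse 1 and 5.45% in WT mouse 6. The log2 difference was 0.56 (SE 0.49, edgeR quasi-likelihood adjusted p = 0.773). In udLN 0 of 5 subsets passed (0%), and 0 had an unadjusted p under 0.05 in edgeR.

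Over both nodes of a mouse the share was 6.38% ± 1.99 (SD, n = 4) in Aire-DTR against 2.99% ± 1.00 (SD, n = 3) in WT mice, a log2 difference of 0.99 (edgeR quasi-likelihood adjusted p = 0.0757). The order ran from mouse 36 (8%), mouse 4 (7.24%), mouse 8 (6.78%), WT mouse 1 (4.04%) and Aire-DTR mouse 7 (3.50%) to WT mice 6 (2.88%) and 97 (2.04%). The genotype difference was not shown to differ between nodes (udLN difference minus brLN difference -0.37 on the log2 scale, SE 0.52, edgeR quasi-likelihood adjusted p = 0.709). Mouse 4, whose pregnancy is recorded as resorbed, lay within the range of the 3 mice recorded as IUGR.

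Levels within Tfh cells were then compared between genotypes. Tfh cells numbered 39, 19, 12 and 40 in Aire-DTR mice 4, 7, 8 and 36, against 17, 4 and 5 in WT mice 1, 6 and 97. Mouse 6, with fewer than 5 cells, was left out of the gene test, and mouse 8 then had no WT mouse in its pool. In bulk sums of this kind, fewer transcripts per cell and fewer cells that express a gene cannot be told apart.

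Cxcr5 had 170, 143, 276 and 285 CPM in Tfh cells of Aire-DTR mice 4, 7, 8 and 36, against 194, 64.5 and 0 CPM in WT mice 1, 6 and 97. The groups overlapped, and in WT mice 6 and 97 a count of 3 UMIs equals 193 and 208 CPM, so their low values were within what depth allows. Pdcd1 had 223, 238, 234 and 143 CPM in the same Aire-DTR mice, against 290, 709 and 0 CPM in the WT mice, which again overlapped. Maf had 340, 429, 297 and 308 CPM in Aire-DTR, against 271, 322 and 486 CPM in WT mice.

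Log2 differences of Aire-DTR over WT were 0.50 (SE 0.56) for Cxcr5, 0.08 (SE 0.52) for Pdcd1 and 0.17 (SE 0.40) for Maf, with edgeR quasi-likelihood adjusted p of 0.960, 0.998 and 0.996. The sign of each turned under other settings. Il21 had 44.7, 47.7, 127 and 60.1 CPM in Aire-DTR mice 4, 7, 8 and 36, against 19.4, 0 and 0 CPM in WT mice 1, 6 and 97. The genotypes did not overlap, but these are 22 UMIs in 13 Aire-DTR cells and 1 UMI in 1 WT cell, the 6 UMIs of mouse 8 lay in 1 cell, and 3 UMIs in mouse 1 would equal 58.1 CPM. Il21 was too low to enter the gene test.

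**Figure D4:**
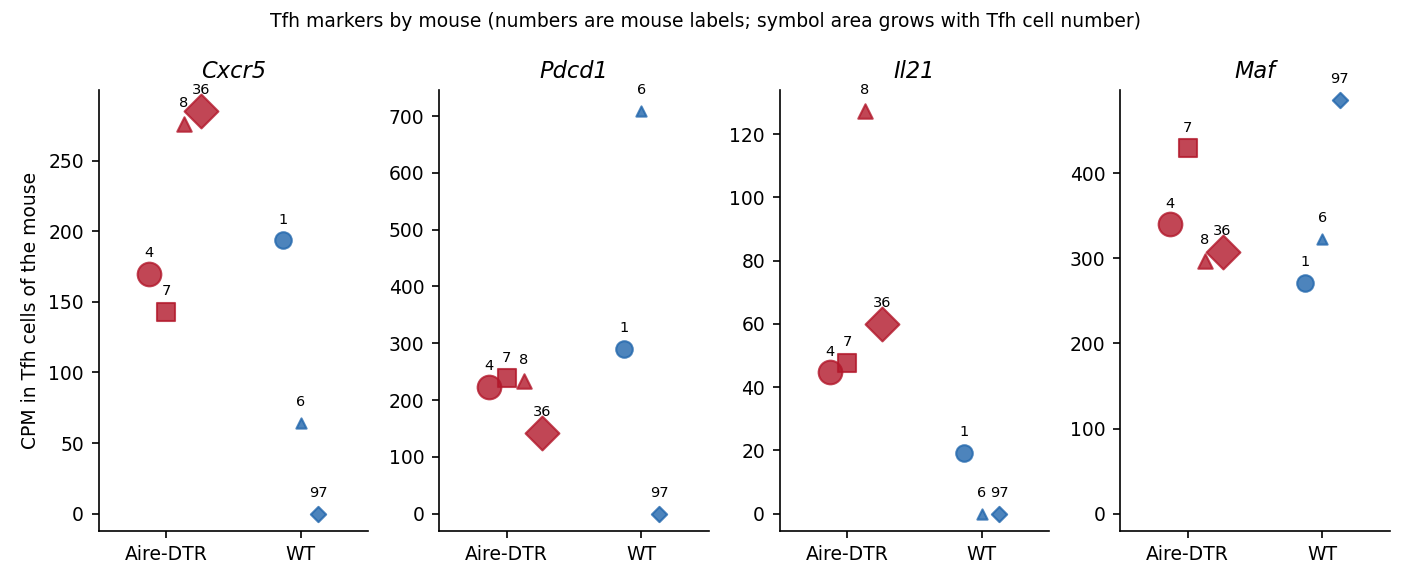
CPM of Cxcr5, Pdcd1, Il21 and Maf in the summed Tfh cells of each mouse, Aire-DTR left and WT right. Numbers are mouse labels and symbol area grows with the number of Tfh cells. WT mice 6 and 97, with 4 and 5 cells, hold the extremes for Pdcd1 (709 and 0 CPM).

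Of 1518 genes tested between genotypes, 3 (0.198%) passed, 1 higher and 2 lower in Aire-DTR (edgeR quasi-likelihood test with pool as a term). At an unadjusted p under 0.05 there were 83, and DESeq2 called 0, with 13 unadjusted. A T cell receptor beta variable segment, not named here, was among the lower genes. Penk, which encodes the opioid precursor proenkephalin, had a log2 difference of -6.28 (SE 1.03, edgeR quasi-likelihood adjusted p = 5.8e-06). Its UMIs were 1, 0, 0 and 0 in Aire-DTR mice 4, 7, 8 and 36, against 36, 3 and 0 in WT mice 1, 6 and 97, and 29 of the 36 in mouse 1 lay in 1 cell. Hbb-bs had a log2 difference of 2.40 (SE 0.50, edgeR quasi-likelihood adjusted p = 0.00196).

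Hbb-bs UMIs were 1, 0, 31 and 292 in Aire-DTR mice 4, 7, 8 and 36, against 0, 4 and 7 in WT mice 1, 6 and 97. Of the 292 in mouse 36, 212 lay in 1 cell. The gene followed the pool, being near 0 in the mice of pool LN in both genotypes, and shares reads with near-identical globins. The call was lost in 10 of 17 alternatives, among them DESeq2, the fit without pool and the brachial node alone. The genes with the next smallest p were Nkg7, a granule protein of cytotoxic cells (log2 -2.20), Sesn3, a stress-induced regulator of growth signalling (-2.05), and Gmfg, an actin regulator (1.46). Each had an edgeR quasi-likelihood adjusted p of 0.154.

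Of the 26 lists, globin genes were the one with a member past the threshold. Of the Tfh transcription factors 6 were tested, 5 higher and 1 lower in Aire-DTR, with a median log2 difference of 0.69 and none past the threshold. Of the B cell help genes 8 were tested, 5 higher and 3 lower, with a median of 0.12 and none past it. Memory and effector genes were lower in 7 of 8 (median -0.16), type 1 genes in 4 of 5 (median -1.76), and none passed. UMIs of Nkg7 and Ccl5 lay in few cells in both genotypes. The 17 Nkg7 UMIs of WT mouse 1 lay in 2 cells, and the 19 Ccl5 UMIs of WT mouse 97 in 1 cell. In Aire-DTR mice, 10 of 12 Nkg7 UMIs of mouse 7 and 25 of 26 Ccl5 UMIs of mouse 36 lay in 1 cell each. Over all 1518 genes, 794 were higher and 724 lower, with a median of 0.01.

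Between nodes, 0 of 703 genes (0%) passed in the Tfh sums of the 5 mice with at least 5 Tfh cells in each node (edgeR quasi-likelihood test with mouse as a block). At an unadjusted p under 0.05 there were 20, and DESeq2 called 0, with 10 unadjusted. Igfbp4, a binding protein of insulin-like growth factors found in naive T cells, had a log2 difference of -2.06 for udLN over brLN. Flna, the actin cross-linker filamin A, had -1.50, Id2, an inhibitor of E proteins that restrains Tfh fate, -1.25, and Rab11b, a GTPase of recycling endosomes, -1.03, all with an edgeR quasi-likelihood adjusted p of 0.998. Hbb-bs had 1.62 (SE 0.42) with an edgeR quasi-likelihood adjusted p of 0.182, and -0.72 without mouse 36. Cxcr5 had 0.06, Pdcd1 -0.33 and Maf -0.46. Of the listed migration genes 7 were tested and all 7 had positive values (median 0.20), and 5 of 5 antagonists had negative values (median -0.26), with none past the threshold. Over all 703 genes tested 363 had positive and 340 negative values (median 0.01).

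**Figure D5:**
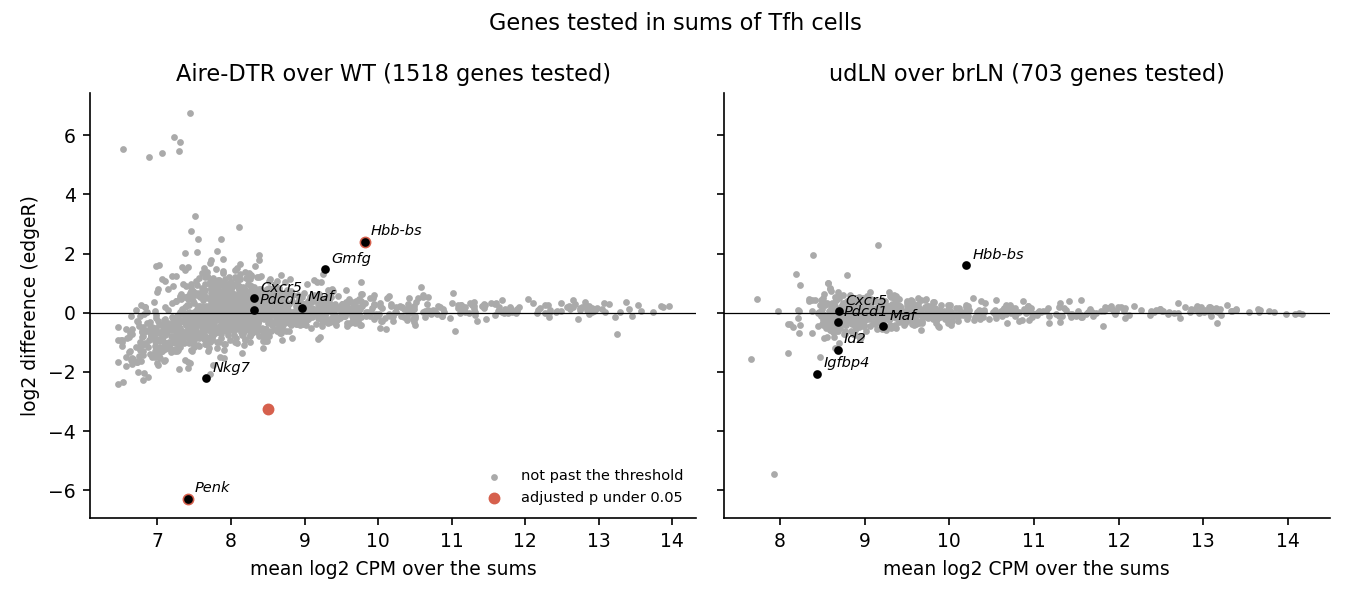
Log2 differences against mean log2 CPM for each gene tested in sums of Tfh cells, Aire-DTR over WT (1518 genes, left) and udLN over brLN (703 genes, right). Red points passed the threshold, 3 on the left and 0 on the right, and the Tfh markers Cxcr5, Pdcd1 and Maf lie close to 0 in both panels.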

How the data were processed

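Lymph node cells of 7 pregnant mice were captured in droplets over 6 wells and their RNA was sequenced cell by cell. The values deposited by the authors are raw UMI counts (14125 genes, 29210327 UMIs as listed, 22833288 with each cell counted once). The submitters' processing notes name Seurat, Scanpy 1.7.0, bustools 0.40.0, kallisto 0.46.1 and build GRCm38. How hashtags were assigned, cells filtered, doublets handled and subsets named is not stated there, and no doublet caller was run. Mouse, node, genotype and subset come from the deposited cell tables. Scaled tables were not used.

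The members and gene lists (26) were chosen with earlier results of these data known. Of cells present in 2 copies the first was kept. CD4 T cells are the cells called naive, memory or Treg CD4 in the whole-series annotation. Cell numbers of the 5 subsets were tested per node with edgeR 4.0.16 (quasi-likelihood, CD4 T cells as library size) in R 4.3.3 with pool as a term, or with mouse as a block between nodes, since both nodes came from the same animal. Within Tfh cells, counts were summed per mouse, or per mouse and node, in sums of 5 to 40 cells. After filterByExpr and TMM scaling these sums went through the same test. Calls needed a Benjamini-Hochberg adjusted p under 0.05 over all genes or the 5 subsets. SE was computed as the log2 difference without its sign, divided by the root of F. The exact permutation tests moved mice across pools. Mice are the replicates. Alternatives used DESeq2 1.42.0 and limma 3.58.1, other denominators, filters, members and cell minimums, each mouse left out, and cells thinned to 1500 UMIs. On simulated counts the genotype test of 1518 genes recovered 26% of 2-fold and 60% of 4-fold changes, and the node test of 703 genes 60% and 88%. Each simulation changed 100 genes 2-fold and 100 genes 4-fold, more than the data called, and held no pool or mouse differences. Recovery with fewer changed genes was not simulated.

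Named genes were the 4 markers, the 15 highest and 10 lowest by ratio, list members, genes past the threshold, and in comparisons with under 5 of these the 5 of smallest p. Some items examined are not reported here, and T cell receptor and immunoglobulin variable segments were counted without being named. Coordinates are from GENCODE M21, matched by symbol.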

Additional observations from a re-analysis of the deposited data

Results flagged for a closer look

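In Tfh cells of the 4 Aire-DTR mice, 1 mouse stood apart from the other 3 for 3 of the genes examined, by a test of the gap to the nearest mouse over the range. Gpm6b was at 210 CPM in mouse 36, against 42.5 to 62.6 CPM in the other Aire-DTR mice. Its WT values were 58.1, 64.5 and 347 CPM in mice 1, 6 and 97, and mice 36 and 97 share pool 2. Pdcd1 was at 143 CPM in mouse 36, against 223 to 238 CPM in the others. Emp3 was at 361 CPM in mouse 8, against 254 to 259 CPM in the others. In all 49 groups of values were tested in this way and 3 stood out, where chance gives about 1 in 20.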

How the results depend on the processing

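The node difference in Tfh share kept its direction and passed in all 16 alternatives (log2 0.74 to 1.18, adjusted p at most 0.0094 by the edgeR quasi-likelihood test or limma), and without the replicate block, that is with the paired nodes of a mouse taken as independent, it was 1.14. The paired fit of genes called 0, and so did the fit without the block (0 of 440). The genotype difference in brLN, which did not pass as reported, passed in 3 alternatives and did not pass in 14. The 3 were limma on logit shares (1.17), the share of all cells (1.31) and the fit without mouse 7 (1.31). It ranged from 0.66 to 1.74 with each mouse left out. The udLN difference and the difference between nodes passed in no alternative. Genes called between genotypes, 3 as reported, were 0 with DESeq2, 0 without pool, 1 in the brachial node alone, 0 with mouse 6 admitted (at least 1 cell per sum) and 0 to 6 with each mouse left out, 6 without mouse 1, 5 without mouse 36 and 0 without mouse 8. Genes called between nodes were 3 without the low-count filter, and 5 with at least 10 cells per sum, where only mice 4 and 36 remained. With each mouse left out they were 0 to 2, with 2 without mouse 4. The cause was not tested. The 15 leading genes stayed highest in Tfh in 9 of 9 alternatives. These reused the cells and names by which the 15 were chosen, so they are no independent test of the choice.

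The genotype value of Cxcr5 turned to -0.27 with at least 10 cells per sum, -0.21 in cells called CD4+ Mem T and -0.10 in the brachial node alone. That of Pdcd1 turned to -0.33, -0.27 and -0.57 in the same settings. It was -0.057 without pool, -0.058 without cells holding a B cell UMI and -0.44 with at least 1 cell per sum. In the first 2 of these settings mouse 97 fell below the cell minimum, which left mouse 1 as the only WT mouse. The fit with at least 10 cells per sum is the same as that without mouse 97. Maf turned to -0.090 in the brachial node alone. With each mouse left out, Cxcr5 ranged from -0.27 to 7.41, Pdcd1 from -0.33 to 6.42 and Maf from -0.42 to 0.48. The highest Cxcr5 and Pdcd1 values came without mouse 1, when the 5 Tfh cells of mouse 97, with 0 UMIs of both, were the only WT cells. Between nodes, DESeq2 gave -0.14 for Hbb-bs and -0.015 for Cxcr5, and both copies as deposited gave 0.10 for Pdcd1. With each mouse left out Cxcr5 ranged from -0.26 to 0.33, Pdcd1 from -0.66 to 0.12 and Hbb-bs from -0.72 (without mouse 36) to 2.32 (without mouse 8). Hbb-bs passed with at least 10 cells per sum, at 2.35 with an edgeR adjusted p of 2.43e-15. That fit held mice 4 and 36 alone. Mouse 4 had 1 Hbb-bs UMI over both nodes, and 212 of the 292 UMIs of mouse 36 lay in 1 cell. Hbb-bs also passed at an edgeR adjusted p of 0.0182 without mouse 4 and of 0.0412 without mouse 8.

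Few Tfh cells limit every result within the class: WT mice gave 26 in all, and 3 UMIs equal 22.5 to 208 CPM in the sums of single mice.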

Other observations

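Cells with UMIs of both Cxcr5 and Foxp3 numbered 7 in Act. Treg, 6 in Resting Treg and 1 each in Tfh, Th17 and Early Act. CD4. Of the 155 Act. Treg cells, 11.6% had a Cxcr5 UMI (95% Wilson interval 7.47% to 17.6%) and 4.52% had both Cxcr5 and Foxp3, against 33.8% and 0.735% of Tfh cells. In Resting Treg cells these shares were 4.51% and 2.26%. In CD8+ Naive T cells 0.574% had a Cxcr5 UMI.

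The wells of a pool are captures of the same mixture of cells. Their Tfh share was 2.74% (4 of 146 CD4 T cells) and 7.06% (12 of 170) in the wells of pool 1, 5.31% and 6.65% in those of pool 2, and 4.74% and 5.28% in those of pool LN.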
